A study of Canis lupus familiaris with 34 samples.

Results

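The 9 genes described here encode growth factors that act on blood-forming cells, together with the receptors of a pair of them: KIT ligand (KITLG) and its receptor KIT, the colony-stimulating factors CSF1, CSF2 and CSF3, the interleukins IL7 and IL34, and FLT3 with its ligand FLT3LG. They were read from 11 of the 29254 probe sets of the canine array that carry exactly 1 gene symbol, which stand for 15115 genes. KIT and FLT3 have 2 probe sets each and the other 7 genes have 1. The genes were selected on their measured log2 levels by tumor type, which were already known, so the differences between tumor types are given below as a description with a standard error and without a p value. A gene that passed the threshold of the fit across all probe sets is called higher or lower, which restates the levels that chose it. P values are given for the 9 genes only between breeds and for pairs of genes across the hemangiosarcoma lines, which did not enter that choice. The lists of other genes were also chosen with earlier results of these data known. Their p values between tumor types may therefore restate levels already seen.

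RNA was measured on Affymetrix Canine_2 arrays in 34 samples with 1 array each, and levels are given as log2 intensities made by the authors with the robust multi-array average (RMA). Cell lines grown in culture came from 10 splenic hemangiosarcomas, a malignant tumor that forms blood vessels. Of these, 6 came from golden retrievers (ChadG4, ChadG6, ChadG8, Frog, Journey and Tucker) and 4 from other dogs (Joey, a Rottweiler; DD1, Golden Retriever x Great Pyrenees; ChadP9, a Portuguese Water Dog; Dal4, a Dalmation as labelled). The other tumors were 5 osteosarcoma lines from golden retrievers, and leukemias and lymphomas taken as primary tumor cells: 6 diffuse large B cell lymphomas, 6 T-zone lymphomas, 1 marginal zone B cell lymphoma, 1 acute lymphoblastic leukemia (Rascal, a golden retriever mix) and 2 chronic lymphocytic leukemias, all but Rascal from golden retrievers. Cultured cells from 3 splenic hematomas, a non-malignant collection of blood in the spleen, came from a golden retriever (Pippin), a Standard Poodle (Baxter) and a Keeshond (Kylie). The labels name 1 dog or line per array, so the spread within a group is that between dogs, but they give no age and no number of passages. Every leukemia and lymphoma was uncultured and every other sample was cultured, so tumor type and culture cannot be told apart between these 2 kinds of sample.

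KIT is a receptor tyrosine kinase of hematopoietic progenitors, mast cells and melanocytes, and its ligand, also called stem cell factor, is made by the stromal and endothelial cells that surround them, as a membrane-bound and a shed form. CSF1 and IL34 share the macrophage receptor CSF1R, CSF2 and CSF3 drive the output of granulocytes and macrophages, IL7 maintains developing and resting lymphocytes, and FLT3LG acts through FLT3 on early progenitors and dendritic cells. Hemangiosarcoma is held to arise from cells of endothelial or bone marrow origin, which is the setting in which these factors are of interest.

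The labelled cell types were set against marker lists. All 9 stromal markers lay above the array median in the hemangiosarcoma lines, in the osteosarcoma lines and in the hematoma cultures, and their mean level was 9.87 to 11.46 in hemangiosarcoma, 10.3 to 12.31 in osteosarcoma and 10.49 to 11.62 in hematoma. Of 10 endothelial markers, KDR and CLDN5 lay above it in the hemangiosarcoma lines. KDR, ENG and CLDN5 did so in the hematoma cultures and also in the osteosarcoma lines. PECAM1, CDH5, VWF and TEK lay above it in none of these cultures. The endothelial list mean was 4.67 to 5.32 in hemangiosarcoma, 4.62 to 5.2 in hematoma and 5.1 to 5.46 in osteosarcoma. The chronic leukemias had 7 of the 10 above it. Of 5 osteoblast markers, ALPL and BGLAP lay above the array median in the osteosarcoma lines. The osteoblast list mean was 4.77 to 5.2 there, beside 4.23 to 5.32 in hemangiosarcoma. The list mean of the B cell markers was 8.8 to 9.41 in diffuse large B cell lymphoma and 6.93 to 9.02 in T-zone lymphoma, so both lymphomas carried them. The bacterial transcripts spiked into each hybridization read 8.95 to 9.54 in the hemangiosarcoma lines, 9.66 to 11.12 in the other 21 tumors and 9.15 to 9.92 in the hematoma cultures, so that the brightest hemangiosarcoma array still lay below the dimmest of the other tumors. Actin probe sets at the 3′ end exceeded those at the 5′ end by -0.07 to 1.28 in hemangiosarcoma, and by 4.06 in the acute leukemia and 2.61 and 5.35 in the chronic leukemias, where a large excess is a sign of shortened RNA. The excess was 0.4 to 1.85 in osteosarcoma and -1.01 to 0.22 in hematoma. It was -0.31 to 2.95 in diffuse large B cell lymphoma, -1.81 to 2.19 in T-zone lymphoma and -0.39 in the marginal zone lymphoma. Some of these values are given again beside the genes.

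**Figure D1:**
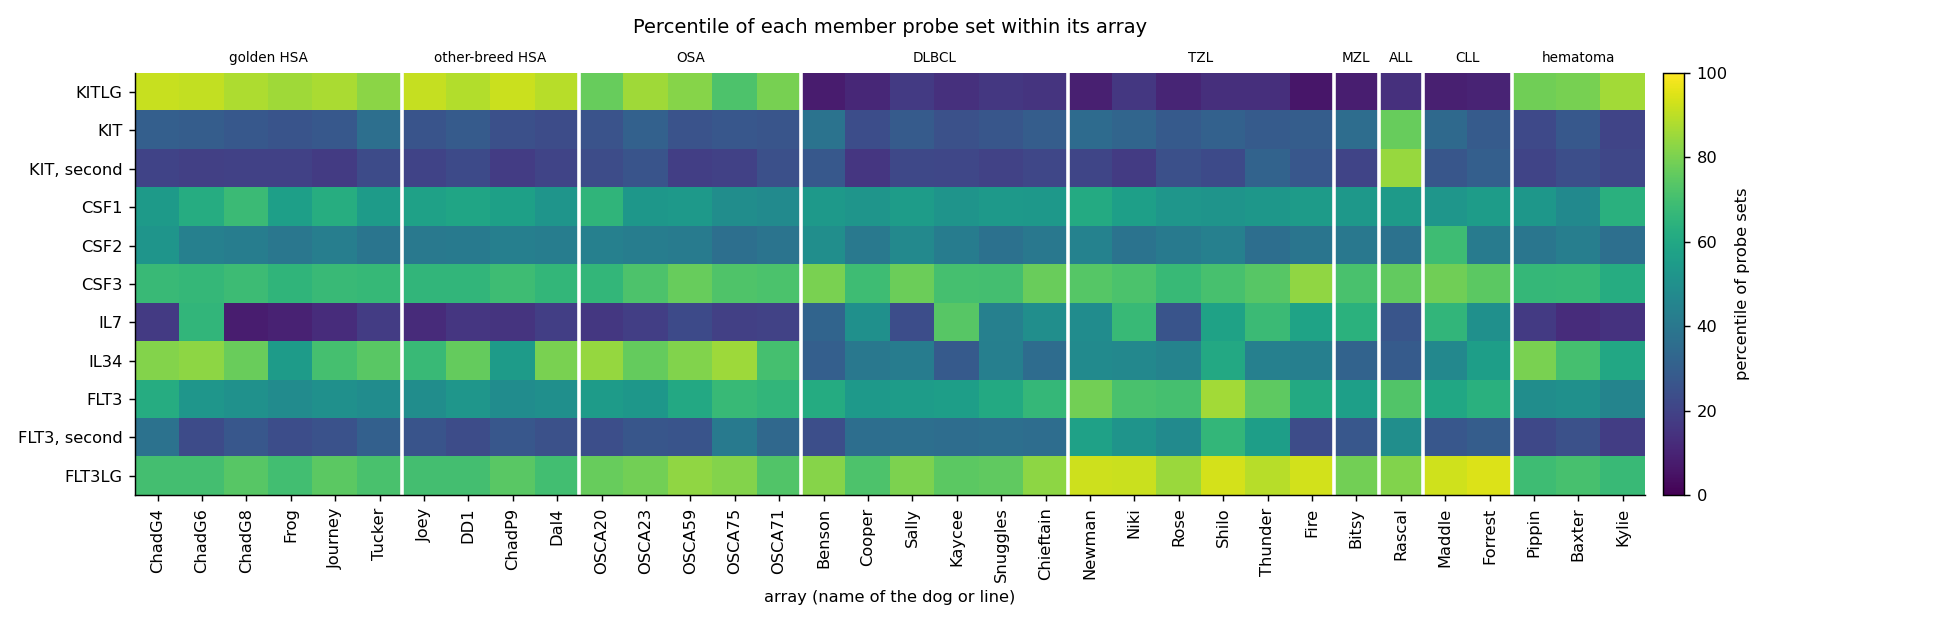
Percentile of each of the 11 probe sets among all probe sets of its array (color), with the 34 arrays in columns by tumor type and the genes in rows; a second probe set of a gene is marked as such. The KITLG row is bright in all 18 cultured samples and dark in all 16 primary ones, and KIT is bright in the acute leukemia Rascal alone.

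KITLG was high in every cultured sample and near the bottom of the scale in every primary leukemia and lymphoma. The golden retriever hemangiosarcoma lines had levels of 9.92 in ChadG4, 9.82 in ChadG6, 9.25 in ChadG8, 9.09 in Frog, 9.21 in Journey and 8.67 in Tucker. The lines from other breeds had 9.88 in Joey, 9.45 in DD1, 9.98 in ChadP9 and 9.61 in Dal4. The osteosarcoma lines had 8.07 in OSCA20, 8.98 in OSCA23, 8.47 in OSCA59, 7.53 in OSCA75 and 8.25 in OSCA71. All the hemangiosarcoma lines but Tucker therefore lay above every osteosarcoma line. The hematoma cultures had 8.26 in Pippin, 8.35 in Baxter and 9.1 in Kylie, of which Kylie lay above Tucker and just above Frog while the others lay below all 10 hemangiosarcoma lines. The 16 leukemias and lymphomas ranged from 3.15 in the T-zone lymphoma Fire to 3.82 in the diffuse large B cell lymphoma Sally, with a median of 3.48. In rank the KITLG probe set stood at a median percentile of 89.0 within the hemangiosarcoma arrays, 79.4 within those of osteosarcoma, 12.3 within those of leukemia and lymphoma and 79.3 within those of hematoma.

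The golden retriever hemangiosarcoma lines averaged 9.33 ± 0.47 for KITLG and the leukemias and lymphomas 3.5 ± 0.19 (SD, n = 6 and 16), a difference of 5.83 (SE 0.15). Since none of the 16 leukemias and lymphomas had KITLG above its array median, no fold change is given for it. The 2 ranges did not overlap, which was also so for 16.3% of the 24551 probe sets tested in that comparison. The lowest cultured sample lay 3.71 above the highest primary one. Among all 42860 probe sets, 2.54% had all 18 cultured samples above all 16 primary samples, and 36 probe sets, with 15 named genes, had a gap at least as wide as that of KITLG. The choice of KITLG rested on these same levels, so the counts are given as a description. Stromal markers moved in the same way, and 7 of the 9 were called higher in the hemangiosarcoma lines at an adjusted p of 0.001. In such samples fewer cells of a type and less RNA per cell cannot be told apart.

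Against osteosarcoma, where both groups were cultured golden retriever lines, KITLG averaged 9.33 ± 0.47 in hemangiosarcoma and 8.26 ± 0.53 in osteosarcoma (SD, n = 6 and 5), a difference of 1.07 (SE 0.28; 95% interval 0.45 to 1.68). It was called higher at an adjusted p of 0.05 in limma, a moderated linear model, as were 9.46% of the probe sets tested, and FLT3LG was called lower, as were 6.89%. Of the 9 genes 6 were tested in that comparison, the rest being too low, and the median difference over all 9 was 0.11, beside 0.01 over all probe sets tested. The same medians were 0.28 beside 0.02 against hematoma, -0.35 beside -0.13 against leukemia and lymphoma, and -0.13 beside 0.04 between the lymphomas. The call for KITLG was lost when ChadG6 was left out (difference 0.97) and when OSCA75 was left out (0.88). Against hematoma the difference was 0.92 (SE 0.27; 95% interval 0.33 to 1.51), with 9.49 ± 0.43 in hemangiosarcoma and 8.57 ± 0.47 in hematoma (SD, n = 10 and 3). None of the 6 genes tested passed an adjusted p of 0.1 in that comparison, which 0.266% of all probe sets tested passed.

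**Figure D2:**
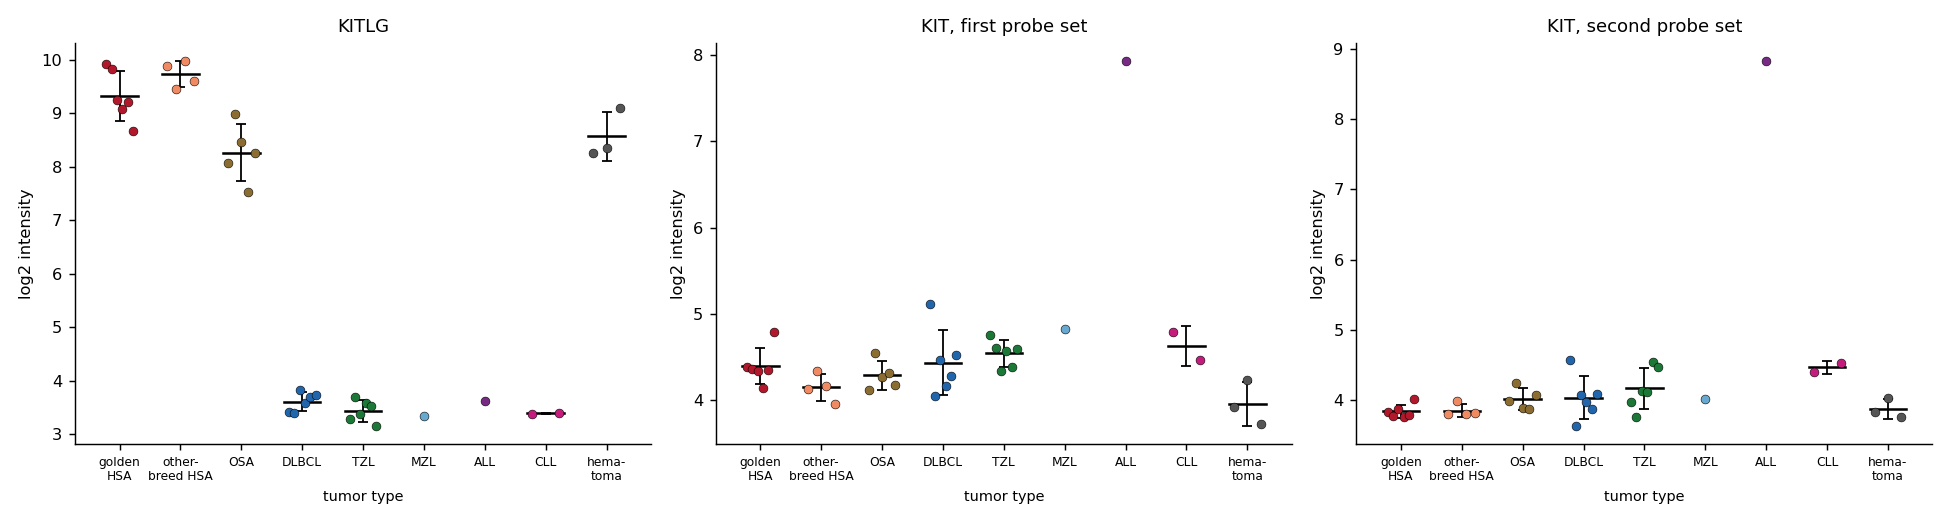
Log2 intensity of KITLG and of the 2 KIT probe sets in each sample (points) by tumor type, with the mean and SD of groups of 2 or more (lines). KITLG separates the 18 cultured samples, at 7.53 and above, from the 16 primary ones, at 3.82 and below, and KIT stands out in the acute lymphoblastic leukemia at 7.93 and 8.83.

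The receptor did not follow its ligand. With the first KIT probe set the hemangiosarcoma lines ranged from 3.96 in Dal4 to 4.79 in Tucker with a median of 4.34, the osteosarcoma lines from 4.12 to 4.55 and the hematoma cultures from 3.72 to 4.23. The acute lymphoblastic leukemia Rascal had 7.93, and the next array of the series, the lymphoma Benson, 5.11. With the second probe set Rascal had 8.83 and the other 33 samples 3.63 to 4.57. No other sample had KIT above its array median with either probe set. The 2 probe sets correlated across the 34 arrays with r = 0.94, and with r = 0.59 once Rascal was left out, a description in which tumor types and array quality are shared. KIT was not tested in any of the comparisons since it did not reach the filter, and its difference between the hemangiosarcoma lines and the hematoma cultures was 0.34 (SE 0.15) with the first probe set and -0.03 (SE 0.09) with the second. The first probe set moved with the hybridization controls across the 10 hemangiosarcoma lines (r = 0.9), against 0.6 for the second, and within tumor types the second gave r = 0.51 with these controls and 0.52 with the actin ratio. The part of this in the level of KIT was not tested, nor was that of the excess of 3′ over 5′ actin in Rascal, 4.06 on the log2 scale.

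Rascal was the highest of the 34 arrays in 5.7% of all probe sets. The margin of KIT over the next array was 2.81 with the first probe set, a margin that 48 probe sets of the array reached, and 4.26 with the second, which 16 reached. Of the 16 genes measured from a list of progenitor genes and regulators of KIT, 4 were highest in this leukemia. CD34, the surface marker of hematopoietic progenitors, had 10.08 in Rascal and at most 6.45 elsewhere, in Fire. MYB, a transcription factor of immature blood cells, had 10.51 in Rascal and at most 9.08 elsewhere, in the T-zone lymphoma Rose. GATA2 (4.95 against at most 3.79) and RUNX1 (7.76 against at most 7.13), which are transcription factors of blood stem cells, were the others. GATA2 lay below the array median even in Rascal, and it is also on the list of mast cell markers. None of the 14 cytokine receptors measured was highest there. Mast cells also carry KIT, and of 7 mast cell markers MS4A2, FCER1A and SLC18A2 lay above the array median in Rascal, with a list mean of 6.39 beside 5.23 and 5.5 in the chronic leukemias and 4.47 to 4.68 in the hemangiosarcoma lines. SLC18A2 lay above it in every group and FCER1A in every primary tumor type, and the chronic leukemias, where KIT was low, had 4 of the markers above it. CPA3 and HDC did not lie above it in Rascal, and the part of mast cells in the KIT signal was not tested. With 1 acute leukemia there is no spread to set these values against.

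**Figure D3:**
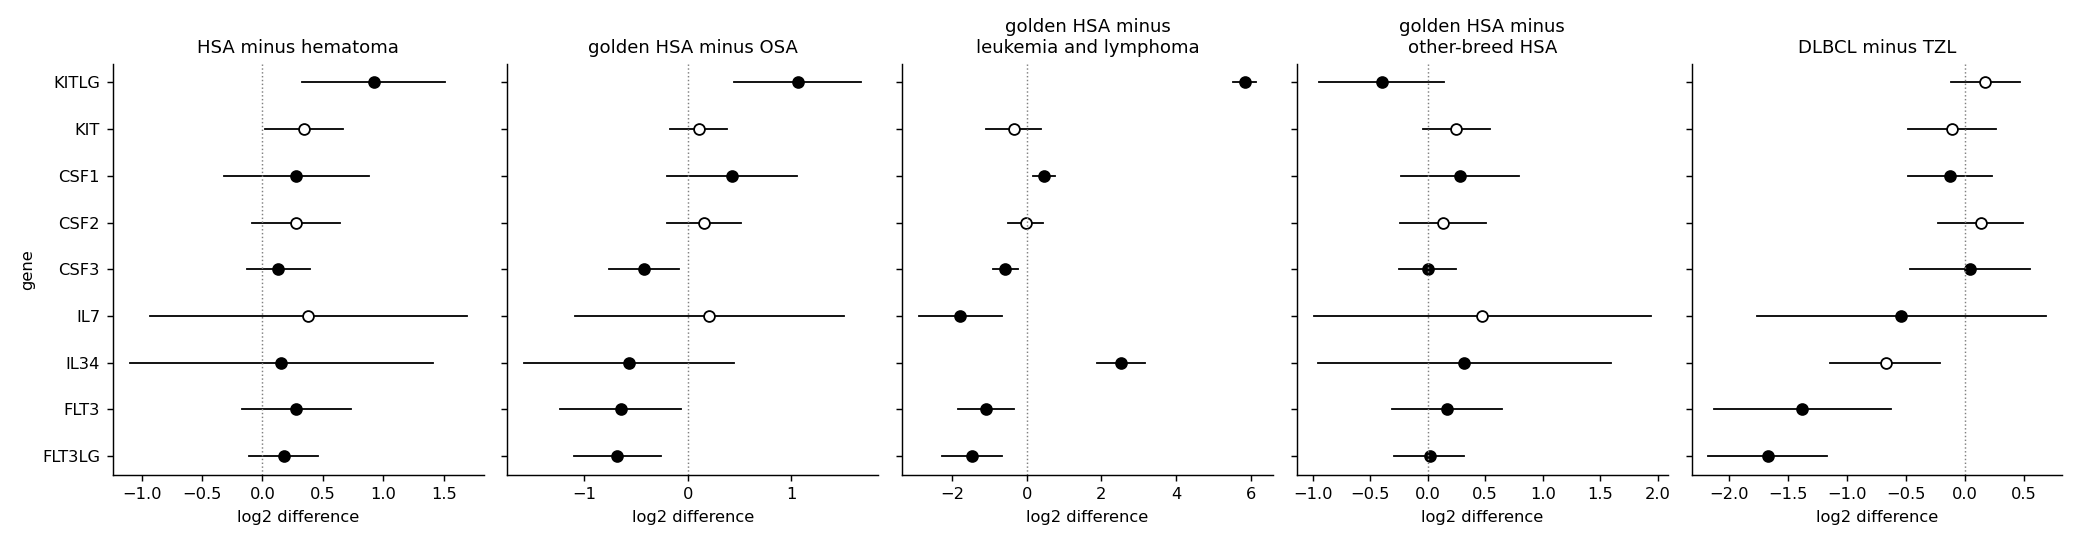
Log2 difference of each gene in the 5 comparisons (points; first-named group minus second) with its 95% interval from limma (lines), where open points mark genes below the filter on low values. Each panel has its own horizontal scale. KITLG lies furthest to the right in the panel against leukemia and lymphoma, at 5.83, and FLT3LG furthest to the left between the lymphomas, at -1.67.

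IL34 and CSF1 are the ligands of CSF1R, the receptor on which macrophages depend. IL34 followed the same split as KITLG but with a wide spread among the cultures. The golden retriever hemangiosarcoma lines had 8.58 in ChadG4, 8.72 in ChadG6, 7.97 in ChadG8, 6.03 in Frog, 7.34 in Journey and 7.73 in Tucker, and those from other breeds 7.21 in Joey, 7.96 in DD1, 6.01 in ChadP9 and 8.45 in Dal4. The osteosarcoma lines ranged from 7.34 to 8.99 and overlapped all but the lowest hemangiosarcoma lines. The hematoma cultures had 8.43, 7.45 and 6.46 and lay inside the range of the hemangiosarcoma lines. In the 16 leukemias and lymphomas it ranged from 4.36 to 6.42 with a median of 5.21, and the highest of these, the T-zone lymphoma Shilo, overlapped the lowest hemangiosarcoma lines Frog and ChadP9. The difference between the golden retriever hemangiosarcoma lines and the leukemias and lymphomas was 2.53 (SE 0.31), with means of 7.73 ± 0.98 in hemangiosarcoma and 5.2 ± 0.55 in leukemia and lymphoma (SD, n = 6 and 16). IL34 and KITLG were the genes called higher there among the 7 that could be tested, beside 14.6% of all probe sets. None was called lower, beside 11.4%.

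CSF1 varied little between tumor types and most within the cultures. The hemangiosarcoma lines ranged from 5.81 in Dal4 to 7.07 in ChadG8 with a median of 6.2, the osteosarcoma lines from 5.47 to 6.96, the leukemias and lymphomas from 5.77 to 6.52, and the hematoma cultures from 5.44 to 6.77. The highest osteosarcoma line was OSCA20 and the highest hematoma culture Kylie, each well above the rest of its group. Its difference between hemangiosarcoma and hematoma was 0.28 (SE 0.28) and between golden retriever hemangiosarcoma and osteosarcoma 0.43 (SE 0.29), neither of which was called. The receptor CSF1R was low in all cultures, at 4.99 to 5.4 in hemangiosarcoma, 5.11 to 5.45 in osteosarcoma and 4.93 to 5.03 in hematoma. It was higher in the primary samples, at 5.55 to 6.97 in the diffuse large B cell lymphomas and 5.6 to 8.26 in the T-zone lymphomas. These values are from the brightest CSF1R probe set. On the other one the hemangiosarcoma lines had 4.0 to 4.93. There the diffuse large B cell lymphomas had 4.78 to 6.48 and the T-zone lymphomas 4.64 to 8.08, so that the ranges overlapped. The list of 10 macrophage and myeloid markers includes CSF1R itself. Of these, 3 of 10 lay above the array median in the hemangiosarcoma lines. In both lymphomas 7 of 10 did, with CSF1R, LYZ, AIF1 and SPI1 added. The list means, CSF1R included, were 4.78 to 5.19 in hemangiosarcoma, 6.53 to 7.3 in diffuse large B cell lymphoma and 6.36 to 8.1 in T-zone lymphoma. The part of macrophages and myeloid cells in the CSF1R level was not tested.

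CSF2 and CSF3, the granulocyte-macrophage and granulocyte colony-stimulating factors, gave little signal that separated the groups. CSF2 lay below the array median in all samples but 2. These were the chronic lymphocytic leukemia Maddle, with 7.09, and the hemangiosarcoma line ChadG4, with 5.84, while the other 9 hemangiosarcoma lines ranged from 4.91 to 5.23. The second chronic leukemia, Forrest, had 5.14, which is within the range of the lymphomas, 4.78 to 5.74. Maddle also had the highest CSF3R, the receptor of CSF3, on its brightest probe set, at 7.75 beside 6.11 in Forrest. Any other sample had at most 6.31 there. On another CSF3R probe set Maddle had 4.96, and the highest sample, the lymphoma Benson, had 6.02. On a further one Maddle was highest at 5.35, beside 5.19 in the lymphoma Snuggles. CSF2RA and CSF2RB, the subunits of the CSF2 receptor, were at 3.47 to 4.32 and 6.31 to 6.75 in the hemangiosarcoma lines. The latter range is that of the brightest CSF2RB probe set, and its other probe sets had 4.97 to 5.52 and 4.79 to 5.47.

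CSF3 lay above the array median on all 34 arrays, but its spread was small. It ranged from 6.93 to 7.23 in the hemangiosarcoma lines, from 7.03 to 7.91 in the osteosarcoma lines, from 7.07 to 8.39 in the leukemias and lymphomas and from 6.65 to 7.09 in the hematoma cultures. The difference between golden retriever hemangiosarcoma and osteosarcoma was -0.42 (SE 0.15) and that to leukemia and lymphoma -0.57 (SE 0.16), neither of which was called. CSF3 moved with the hybridization controls across the arrays (r = 0.74), and less so within tumor types (r = 0.37), where the median over all probe sets was 0.04 and 90% of them lay between -0.43 and 0.5. It also moved with the actin ratio within tumor types (r = 0.55). The part of these in its level was not tested.

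**Figure D4:**
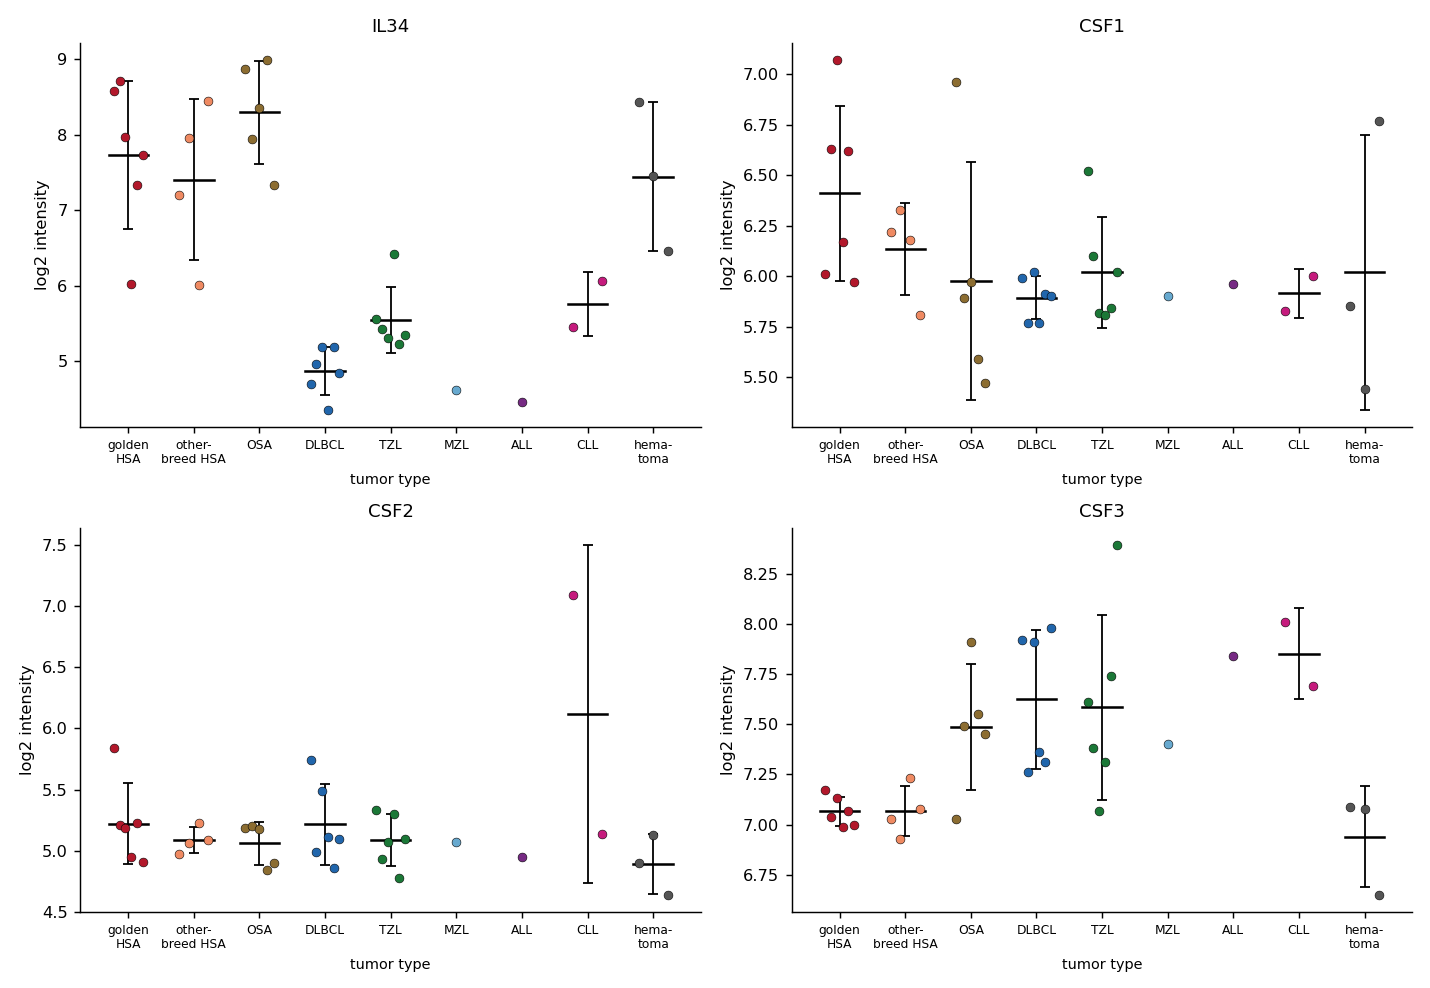
Log2 intensity of IL34, CSF1, CSF2 and CSF3 in each sample (points) by tumor type, with the mean and SD of groups of 2 or more (lines). IL34 spreads over the cultures between 6.01 and 8.99, and CSF2 stands out in the chronic lymphocytic leukemia at 7.09.

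IL7, which stromal cells of marrow and lymphoid tissue make for lymphocytes, was low in nearly all cultures. In hemangiosarcoma 9 lines ranged from 3.21 to 3.74, and ChadG6 alone had 6.98. The osteosarcoma lines had 3.6 to 4.09 and the hematoma cultures 3.4 to 3.63. ChadG6 was thus the only cultured sample inside the range of the primary ones. The primary samples had 4.34 in the acute leukemia, 6.83 and 5.67 in the chronic leukemias, 4.18 to 7.7 in the diffuse large B cell lymphomas, 6.71 in the marginal zone lymphoma and 4.22 to 7.16 in the T-zone lymphomas. The 2 lymphoma groups overlapped over most of their range. The list mean of the T cell markers was 5.17 in ChadG6 and 4.93 to 6.36 over the hemangiosarcoma lines. The source of the IL7 signal in ChadG6 was not tested. The difference between the golden retriever hemangiosarcoma lines and the leukemias and lymphomas was -1.77 (SE 0.54) and was not called, but it was -2.35 and called when ChadG6 was left out.

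The receptor of IL7 is formed by IL7R and the common gamma chain IL2RG. IL7R had 4.96 to 5.88 in the hemangiosarcoma lines, 4.92 to 5.63 in the osteosarcoma lines and 4.65 to 5.13 in the hematoma cultures. The diffuse large B cell lymphomas had 5.89 to 8.27 and the T-zone lymphomas 10.25 to 11.53, without overlap. The chronic leukemias had 12.5 in Forrest and 7.43 in Maddle. Between the 2 lymphomas IL7R differed by -4.40 (SE 0.37; limma adjusted p = 6.78e-06, lower in 6 of 6 diffuse large B cell lymphomas). IL2RG separated primary from cultured samples, with 4.18 to 4.86 in the hemangiosarcoma lines and 6.26 to 8.44 in the leukemias and lymphomas. IL7 itself differed by -0.54 (SE 0.57) between the lymphomas, a difference within its own standard error.

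FLT3 was highest in T-zone lymphoma, and its ligand FLT3LG in T-zone lymphoma and chronic lymphocytic leukemia. In the diffuse large B cell lymphomas FLT3 had 6.46 in Benson, 5.92 in Cooper, 6.02 in Sally, 6.08 in Kaycee, 6.44 in Snuggles and 6.93 in Chieftain. In the T-zone lymphomas it had 8.12 in Newman, 7.36 in Niki, 7.39 in Rose, 8.95 in Shilo, 7.87 in Thunder and 6.42 in Fire. Shilo and Newman were the highest of the series and Fire the lowest of its group. The acute leukemia had 7.52 and the chronic leukemias 6.31 and 6.61. Among the cultures the hemangiosarcoma lines ranged from 5.52 to 5.85 except for ChadG4 with 6.64, the osteosarcoma lines had 5.88 to 7.08 and the hematoma cultures 5.21 to 5.66. Only Fire among the T-zone lymphomas lay inside the range of the diffuse large B cell lymphomas. The second FLT3 probe set followed the first across the 34 arrays (r = 0.93), and in Fire, at 4.24, it was lower than in any diffuse large B cell lymphoma.

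FLT3LG, the ligand, had 7.57 in Cooper to 8.6 in Chieftain with a median of 7.98 among the diffuse large B cell lymphomas, and 8.94 in Rose to 10.14 in Shilo with a median of 9.82 among the T-zone lymphomas. It had 9.99 and 10.54 in the chronic leukemias and 8.39 in the acute one. The hemangiosarcoma lines ranged from 7.33 to 7.76, the osteosarcoma lines from 7.56 to 8.63 and the hematoma cultures from 7.17 to 7.49. The T-zone lymphomas and chronic leukemias thus lay above every other sample of the series. The choice of FLT3LG rested on these levels, and the share of all probe sets that set these samples apart likewise was not computed. T cell markers were also highest in these samples, at a list mean of 9.0 to 9.65 in the diffuse large B cell lymphomas, 11.41 to 12.01 in the T-zone lymphomas and 11.31 and 11.59 in the chronic leukemias, and their part in the FLT3LG level was not tested. The part of the excess of 3′ over 5′ actin in the chronic leukemias, 2.61 and 5.35 on the log2 scale, was not tested either.

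Between the lymphomas FLT3 averaged 6.31 ± 0.38 in diffuse large B cell and 7.68 ± 0.85 in T-zone lymphoma (SD, n = 6 each), a difference of -1.38 (SE 0.35), and FLT3LG 8.02 ± 0.37 in diffuse large B cell and 9.7 ± 0.42 in T-zone lymphoma, a difference of -1.67 (SE 0.23) or 3.19-fold. Both were called lower in diffuse large B cell lymphoma at an adjusted p of 0.05, out of 5 genes tested, beside 9.32% of all probe sets called lower and 9.14% called higher. FLT3LG did not overlap between the groups, which held for 7.76% of the probe sets tested, nor did IL34 (4.88 ± 0.32 in diffuse large B cell and 5.55 ± 0.44 in T-zone lymphoma), which was below the filter. Among the T-zone lymphomas the order of the FLT3 levels was Shilo, Newman, Thunder, Rose, Niki and Fire. The list mean of the macrophage and myeloid markers was 7.44 in Shilo, 8.1 in Newman, 7.32 in Thunder, 6.8 in Rose, 7.1 in Niki and 6.36 in Fire. Within this group the 3 samples with the highest FLT3 were also the 3 with the highest myeloid mean. Outside this group, Cooper, with the lowest FLT3 of the primary samples (5.92), had a myeloid mean of 7.3. The chronic leukemias Maddle and Forrest had myeloid means of 7.42 and 7.5 and FLT3 levels of 6.31 and 6.61. CSF2RA, a myeloid receptor, had 6.97 in Shilo and 5.71 in Newman and 4.03 to 4.47 in the other 4, with the lowest in Thunder. The part of myeloid cells in the FLT3 level was not tested. The excess of 3′ over 5′ actin was 1.73 in Fire, 2.19 in Thunder and -1.81 to -1.39 in Newman, Niki, Rose and Shilo. It was -0.31 to 2.95 in the diffuse large B cell lymphomas, and its part in the FLT3 and FLT3LG levels was not tested.

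Against osteosarcoma FLT3LG averaged 7.5 ± 0.16 in golden retriever hemangiosarcoma and 8.19 ± 0.42 in osteosarcoma (SD, n = 6 and 5), a difference of -0.68 (SE 0.19). This call was lost in 8 of the 11 fits that left out an array, with differences of -0.84 to -0.57 over all alternatives. FLT3 differed by -0.64 (SE 0.27) in the same comparison and was not called, but it was called, at -0.81, when ChadG4 was left out.

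**Figure D5:**
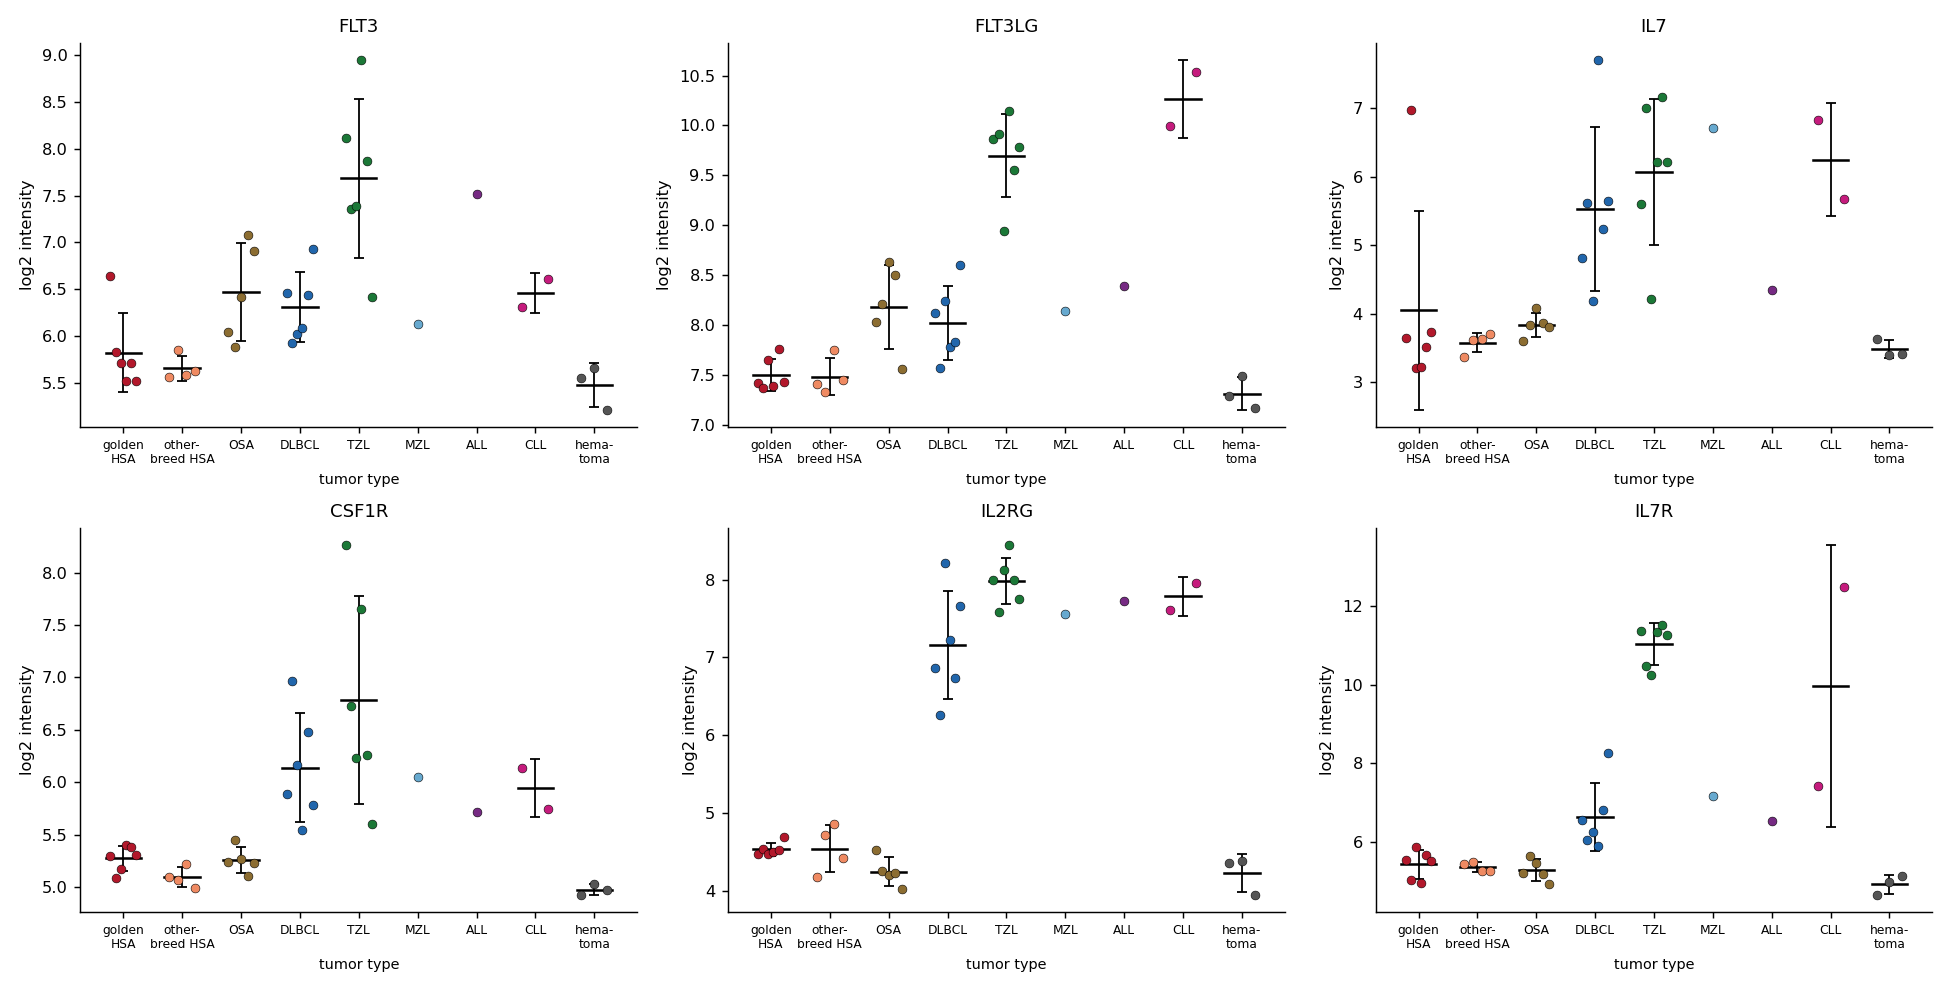
Log2 intensity of FLT3, FLT3LG and IL7 (top) and of the receptors CSF1R, IL2RG and IL7R (bottom) in each sample (points) by tumor type, with the mean and SD of groups of 2 or more (lines). FLT3LG is highest in T-zone lymphoma and chronic lymphocytic leukemia, IL7R is highest in T-zone lymphoma and in 1 of the 2 chronic leukemias, and 1 hemangiosarcoma line reaches 6.98 for IL7.

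The genes around these factors were taken from 6 lists with 77 of 84 genes on the array: receptors, other hematopoietic cytokines, signaling below KIT and the cytokine receptors, progenitor genes, stromal cytokines, and enzymes that shed the ligands. Between hemangiosarcoma and hematoma no listed gene was called. Between golden retriever hemangiosarcoma and osteosarcoma 9 of 40 tested were called, 5 higher and 4 lower, beside the 9.46% and 6.89% of all probe sets. CXCL12, a chemokine that holds progenitors in marrow, was higher by 2.57 (SE 0.46, limma adjusted p = 0.00516), at 8.91 to 10.36 in hemangiosarcoma and 5.22 to 8.14 in osteosarcoma. MEIS1, a transcription factor of blood stem cells and endothelium, was higher by 2.42 (SE 0.22). The receptors CSF2RB and IL3RA were lower, by 0.46 and 0.60, as were the progenitor genes THY1 and FLI1. For CSF2RB this was seen on its brightest probe set. Its other probe sets averaged 5.28 and 5.18 in golden retriever hemangiosarcoma, beside 5.25 and 5.16 in osteosarcoma.

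Of the signaling list, 3 of 17 tested genes were higher and none lower in hemangiosarcoma than in osteosarcoma: PIK3CD, PTPN11 and SPRED1, beside 9.46% and 6.89% of all probe sets. Against leukemia and lymphoma 3 of 20 were higher and 7 lower, beside 14.6% and 11.4% of all probe sets. The lower ones included PTPN6, the phosphatase that restrains KIT and cytokine receptors in blood cells, at 4.62 to 5.01 in hemangiosarcoma and 9.15 to 12.23 in leukemia and lymphoma, and STAT5A, which carries cytokine signals to the nucleus. PTPN11 and SPRED1 were higher in that comparison too. Of 11 receptors tested, LIFR was higher and IL2RG, IL3RA and IL6R were lower. Between the lymphomas the list of signaling genes had 1 of 17 higher (LYN) and 5 lower in diffuse large B cell lymphoma, beside 9.14% and 9.32% of all probe sets, and of the 3 other cytokines tested IL2 and IL15 were lower.

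No difference between breeds was called for any of these genes. KITLG averaged 9.33 ± 0.47 in the golden retriever lines and 9.73 ± 0.25 in the other lines (SD, n = 6 and 4), a difference of -0.40 (SE 0.25; 95% interval -0.94 to 0.14; limma adjusted p = 0.999). The interval thus allows KITLG to be almost 1 log2 unit lower in golden retriever lines. IL34 differed by 0.32 (95% interval -0.95 to 1.59) and CSF1 by 0.28 (-0.23 to 0.79), both with limma adjusted p = 0.999. All 6 genes tested gave an adjusted p of 0.999 or above. Of all probe sets, 0% were called at an adjusted p of 0.1, and 741 of 22206 had an unadjusted p under 0.05.

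Pairs of the genes were compared across the 10 hemangiosarcoma lines. Of 15 pairs among KITLG, CSF1, CSF3, IL34, FLT3 and FLT3LG, none had an adjusted p under 0.05 by Pearson or Spearman, and 1 had an unadjusted p under 0.05 by Pearson and 2 by Spearman. CSF3 and FLT3LG gave r = 0.65 (2-sided permutation p = 0.039, adjusted p = 0.585) and rho = 0.68 (permutation p = 0.035, adjusted p = 0.263). Without the 2 lines farthest from the median of CSF3 r was 0.33. IL34 and FLT3 gave r = 0.54 (permutation p = 0.107, adjusted p = 0.659) and rho = 0.72 (permutation p = 0.0228, adjusted p = 0.263).

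The genes whose levels were most like each factor were found by Pearson correlation over the 34 arrays among 11314 genes, for the 6 factors whose SD exceeded the median SD of 0.46. For KITLG these were DPYSL3 (r = 0.983), CAV2 (0.981), RAB34 (0.978), PLS3 (0.977) and PON2 (0.975). These points fall into cultured and primary samples, and within the 18 cultured samples r was 0.49, 0.48, 0.65, 0.18 and 0.45 in the same order. By Spearman none of the 5 was among the first 5. For KIT they were CD34 (0.946), TFF1 (0.935), THEG (0.929), MS4A2 (0.898) and IL20RA (0.889), and without Rascal r was 0.71, 0.61, 0.67, 0.51 and 0.53. FLT3LG was most like TNFRSF25 (0.934), a receptor of T cells, HDDC3 (0.932) and TSC22D4 (0.924), and TNFRSF25 gave 0.86 within the cultured samples and 0.9 within the primary ones. FLT3 was most like FCER1A (0.842), CFP (0.822) and IL4I1 (0.814). IL7 was most like FASLG (0.847), LYST (0.823) and BAZ2A (0.811), and IL34 like C1QTNF2 (0.922), TPST1 (0.916) and RHOC (0.906). Within the cultured samples r was 0.22, 0.15 and 0.17 for the genes of IL7 and 0.46, 0.35 and 0.5 for those of FLT3, and within the primary samples it was 0.28, 0.35 and 0.76 for those of IL34.

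The hematoma comparison rested on 3 cultures, and its 62 called probe sets became 7 without Baxter and 200 without Pippin. Across the arrays KITLG went against the hybridization controls (r = -0.74) as IL34 did (r = -0.6), and within tumor types these were 0.09 and -0.26. Across the 10 hemangiosarcoma lines alone they were -0.59 and 0.0. The part of hybridization in the differences between hemangiosarcoma and the other tumors was not tested.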

How the data were processed

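The deposited table holds log2 values, summarized and normalized by the authors by RMA (affy, version not given in the sources used here). It has 43035 probe sets, with 175 controls not analysed, and values of 2.03 to 14.98 with array medians of 5.57 to 5.77. No further normalization was applied. Gene names came from the array annotation, in which 29254 probe sets carry 1 symbol, 439 several and 13167 none. The members, lists and tests were chosen with earlier results of these data known. A gene with several probe sets is represented by its brightest, judged by the mean of all 34 arrays.

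Tests were run on probe sets whose value exceeded the median of the array in a number of samples no smaller than the smaller group. The test was limma 3.58.1 (R 4.3.3) followed by the Benjamini-Hochberg method, with thresholds of 0.1 for hemangiosarcoma against hematoma and for breeds, 0.05 against osteosarcoma and between lymphomas, and 0.001 against leukemia and lymphoma. A gene is called when it passes. All samples of the named groups entered each fit, without covariates. Pairs of genes used 100000 permutations in Python 3.11.15 with scipy 1.17.1. Named genes were the 9 members, up to 4 called genes per list and comparison with the largest difference, the members' receptors, and the 5 or 3 most similar genes. Alternatives were no filter, another variance prior, arrays centered on their medians, all arrays in 1 fit, another probe set per gene, Spearman correlation, and each array left out, with ChadG4 and Dal4 also left out together. The highest correlation between 2 arrays was 0.9854, between ChadG8 and DD1, and no array was treated as a repeat. Gene sequences were not used here. The comparison of the genes with the hybridization and actin controls was added after the data had been seen.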

Additional observations from a re-analysis of the deposited data

Results flagged for a closer look

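In groups of 4 to 10 samples a value that stood far from the rest, by Dixon's criterion, was found in 6 of 44 groups of a probe set and a tumor type. The criterion is set at about 1 in 20 for independent groups, but KIT and FLT3 entered with both of their probe sets. The share over all probe sets of the array was not computed, so the count is not read as an excess. IL7 was 6.98 in the hemangiosarcoma line ChadG6, with the other lines at 3.21 to 3.74. In ChadG4 CSF2 was 5.84, with the other hemangiosarcoma lines at 4.91 to 5.23, and FLT3 was 6.64, with the others at 5.52 to 5.85. The first KIT probe set was 4.79 in the hemangiosarcoma line Tucker, with the others at 3.96 to 4.39. IL34 was 6.42 in the T-zone lymphoma Shilo, with the others at 5.23 to 5.56. The second FLT3 probe set was 4.4 in the diffuse large B cell lymphoma Benson, with the others at 4.73 to 4.88.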

How the results depend on the processing

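Of the differences of the 9 genes recomputed under the alternatives none of the called ones changed direction, and those of KITLG and IL34 to leukemia and lymphoma and of FLT3 and FLT3LG between the lymphomas stayed called under each of them on the probe set that stands for the gene. The genes were chosen on these same levels, so calls that stay restate that choice. The second FLT3 probe set was tested only without the filter and was not called there, at -1.05. Between hemangiosarcoma and hematoma 62 probe sets were called, 181 with all 34 arrays in 1 fit, and 7 (without Baxter) to 200 (without Pippin) when an array was left out. Against osteosarcoma 3619 were called, and 2141 (without Frog) to 4940 when an array was left out, with 2377 without ChadG6. Between breeds 0 were called, and 0 to 1 when a line was left out, with 1 without ChadG4 or without DD1. Of the 5 genes most like KITLG by Pearson, 0 were among the first 5 by Spearman. The causes were not tested. No paired analysis was possible because the labels name a different dog or line for each array. With 3 hematomas, 1 acute leukemia and 2 chronic leukemias, the values of those groups are the least certain.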
